A study of Homo sapiens with 2 samples.

Results

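The replication-dependent histone genes encode the linker histone H1 and the core histones H2A, H2B, H3 and H4 that package newly copied DNA. They were taken as every protein-coding row of the deposited gene table whose symbol starts with HIST1, HIST2, HIST3 or HIST4, which gave 72 genes of 58302 listed. The 72 rows carry 71 symbols, because HIST1H3D stands under 2 identifiers. RNA-seq had been run on 2 libraries of A549 cells, 1 of genotype control, given as the control of the overexpression, and 1 of genotype PGC-1alpha overexpression. PGC-1α is a coactivator of transcription, and its gene is PPARGC1A. A549 is an established human lung adenocarcinoma line. Both cultures were grown in F12K medium with 10% FBS, and total RNA was extracted with TRIzol and cleaned on columns. The labels name no construct, no time after its delivery, no selection of polyadenylated RNA and no strand setting, so these are not known here. With 1 library per condition no difference has a replicate check, no test was possible and no p-value is given.

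Replication-dependent histone genes are switched on at the start of S phase, when NPAT, a cofactor that cyclin E and CDK2 activate, acts at the histone locus body. Their main transcripts have no poly(A) tail and end just after a short stem-loop, which SLBP binds, so libraries made from polyadenylated RNA hold few of them. Some of the genes can also give longer, polyadenylated transcripts that run past the stem-loop, as is known from cells that leave the cycle. H2A and H2B genes often lie head to head on either side of a shared promoter.

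The libraries held 27125084 counts for the control and 24334768 for PGC-1α. PPARGC1A itself had 5 control and 4654 PGC-1α counts, a log2 ratio of 9.90 (interval 8.81 to 11.66), high in the library labelled as overexpressing it. Levels below are CPM, counts per 1000000 of the TMM-normalised library total, and differences are log2 ratios of PGC-1α over control after adding 0.5 to each count. Where a pair of values is given, the control comes first, and gene positions are those of the table, read as GRCh38. Intervals are exact 95% Clopper-Pearson intervals of the split of the 2 counts. They cover counting error alone, and neither the spread between cultures nor duplicate reads of 1 molecule, since no molecular identifiers are stated. Of the A549 and epithelial markers, 8 of 8 were measured, with ALDH1A1 at 180506 and 145662 counts, KRT8 at 105496 and 94371 and KRT18 at 37506 and 31244, while NKX2-1 and SFTPA1 of the alveolar list stood at 0 in both libraries. Of the immune markers, 1 of 7 was measured, CD14, which was lower with 164 and 82 counts at -0.82 (interval -1.23 to -0.44), and CD3E and HLA-DRA stood at 0. Of the fibroblast markers, 3 of 7 were measured, COL1A1, THY1 and COL3A1, of which COL1A1 was higher with 570 and 799 counts at 0.66 (interval 0.50 to 0.82). Summed levels were 6.20 and 3.64 CPM for the immune list and 35.8 and 48.8 CPM for the fibroblast list, and their part in the histone ratios was not tested. Of the endothelial markers 1 of 6 was measured, ESAM, and of the alveolar markers 2 of 8, ABCA3 and AGER.

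Promoters and 3′ ends of a few of the genes are shown here because the results return to them. A RefSeq promoter window of 300 bases, 250 before the start and 50 after it, was matched for 67 of the 72 genes on GRCh38.p14. The windows below belong to the HIST2H2AC start, chr1:149886668-149886967 on the plus strand, which also covers the start of HIST2H2BE on the other strand, to HIST2H2BF, chr1:149812321-149812620 on the minus strand, to HIST1H2AG, chr6:27132793-27133092 on the plus strand, which also covers the start of HIST1H2BJ, and to HIST1H2BK, chr6:27146806-27147105 on the minus strand. The starts of HIST2H2BE and HIST1H2BJ meant here are those of RefSeq. They lie 30 and 45 bases from the starts listed for these genes, which fall outside the windows. Each window reads 5′ to 3′ along its gene, and capitals mark 3 motifs on either strand. These are TATAAA, the box bound by the TATA-binding protein, whose forward and reverse matches can overlap, next CCAAT, bound by NF-Y, and last ATTTGCAT, the octamer bound by POU2F1.
HIST2H2AC: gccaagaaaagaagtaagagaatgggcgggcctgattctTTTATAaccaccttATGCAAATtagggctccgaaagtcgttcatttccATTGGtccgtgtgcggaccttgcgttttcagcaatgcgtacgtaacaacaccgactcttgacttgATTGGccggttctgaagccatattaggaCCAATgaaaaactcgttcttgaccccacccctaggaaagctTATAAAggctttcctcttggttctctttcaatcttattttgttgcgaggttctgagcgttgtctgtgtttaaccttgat
HIST2H2BF: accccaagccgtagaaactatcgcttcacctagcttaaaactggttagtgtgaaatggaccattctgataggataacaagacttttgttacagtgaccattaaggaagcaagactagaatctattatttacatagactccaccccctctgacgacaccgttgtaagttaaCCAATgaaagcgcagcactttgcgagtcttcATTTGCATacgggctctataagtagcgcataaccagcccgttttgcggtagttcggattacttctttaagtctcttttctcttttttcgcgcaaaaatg
HIST1H2AG: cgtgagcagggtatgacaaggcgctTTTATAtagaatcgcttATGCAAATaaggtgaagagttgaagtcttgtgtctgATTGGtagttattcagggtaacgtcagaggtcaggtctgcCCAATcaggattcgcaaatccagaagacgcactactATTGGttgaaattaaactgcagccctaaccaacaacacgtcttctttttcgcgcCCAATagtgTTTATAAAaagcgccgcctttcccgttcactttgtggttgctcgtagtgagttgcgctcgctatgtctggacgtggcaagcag
HIST1H2BK: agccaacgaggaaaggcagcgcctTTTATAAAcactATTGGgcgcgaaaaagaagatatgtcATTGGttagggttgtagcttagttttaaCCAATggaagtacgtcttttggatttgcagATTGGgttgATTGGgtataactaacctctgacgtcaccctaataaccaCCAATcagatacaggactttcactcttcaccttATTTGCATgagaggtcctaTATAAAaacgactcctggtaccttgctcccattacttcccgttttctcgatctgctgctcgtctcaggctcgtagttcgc
The first 3 belong to genes that were lower in the PGC-1α library, and the HIST1H2BK window to the histone gene with the most counts, which was not. All 4 hold CCAAT and the octamer, and all but HIST2H2BF hold TATAAA.

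Across the matched histone promoters TATAAA was present in 67.2%, CCAAT in 85.1% and ATTTGCAT in 38.8%, against 11.5%, 34.6% and 1.77% of all 35116 promoters of the table. The octamer stood in 11 of 16 H2A and 14 of 18 H2B windows, in 1 of 14 H3 windows and in none of the 6 H1 and 13 H4 windows. That H3 window, of 1 HIST1H3D row, is also the window of the H2A gene HIST1H2AD. The window of the other HIST1H3D row lacks the octamer. The motif TCAAGGTCA, the element of the estrogen-related receptors that PGC-1α coactivates, was in 0 of 67 windows, against 0.353% of all promoters. TTTGAA was in 35.8%, against 15.2% of all. A match or its absence describes only these letters in this window.

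The stem-loop was looked for in GENCODE 29 transcripts as a hairpin of 16 bases, with a 6-base stem that starts with GG and a 4-base loop, in the first 150 bases after the stop codon. Of 37 genes with at least 30 annotated bases after the stop, 32 held one, in 6 different spellings. The 35 other genes are annotated with fewer bases there. The hairpin is in capitals below, with 5 bases on either side.
HIST2H2BE: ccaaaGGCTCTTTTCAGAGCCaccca
HIST2H2BF: ccaaaGGCTCTTTTCAGAGCCacttc
HIST1H2AC: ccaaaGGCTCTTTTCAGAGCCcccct
HIST1H2AG: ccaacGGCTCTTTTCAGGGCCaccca
HIST1H2BD: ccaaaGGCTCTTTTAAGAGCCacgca
HIST1H4I: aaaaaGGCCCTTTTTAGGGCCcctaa
HIST1H3E: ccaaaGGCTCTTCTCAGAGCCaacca
HIST2H2BE, HIST2H2BF and HIST1H2AC share the most frequent hairpin, found in 17 genes. The hairpins of HIST1H2AG, HIST1H2BD, HIST1H4I and HIST1H3E differ from it within the stem or the loop.

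Histone RNA was scarce in both libraries. The 72 genes together had 3969 control and 3169 PGC-1α counts, which is 0.0146% (95% interval 0.0142 to 0.0151) and 0.0130% (0.0126 to 0.0135) of all counts. The log2 ratio of the sum was -0.15 (interval -0.22 to -0.08). A total of 14 genes stood at 0 in both libraries, 3 at 0 in the control alone and 5 at 0 in the PGC-1α library alone. Taking 3 counts as the limit, a count of 0 allows a level of up to 0.110 CPM (control) or 0.124 CPM (PGC-1α). A gene counted as measured where its CPM averaged 1 or more across the libraries, which 19 of the 72 did. These held 93.0% and 93.3% of the histone counts. The 39 other genes above 0 lay under that filter.

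**Figure D1:**
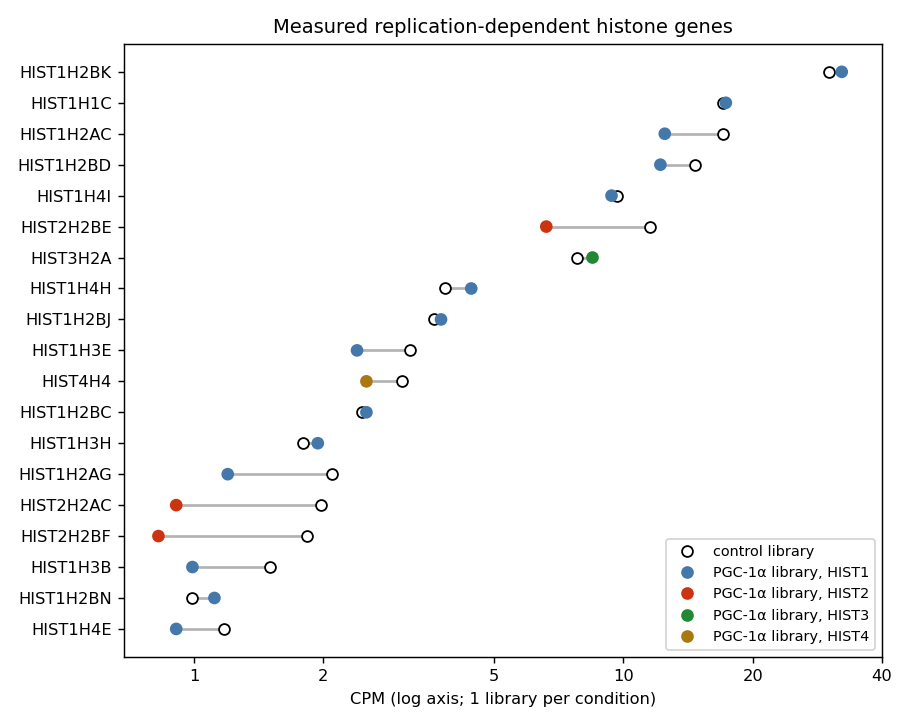
Level of each of the 19 measured histone genes in CPM on a log axis, with the control library as an open circle and the PGC-1α library as a filled circle coloured by gene cluster. The red HIST2 points lie to the left of their open circles by more than most of the other pairs do.

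A gene was called lower or higher where the ratio was at least 1.5-fold in either direction and its interval left out 1. Of the 19 measured histone genes 4 were called lower, which is 21.1%, and 0 were called higher. Among all 14154 measured genes, 3.92% were called lower and 5.3% higher. The 4 genes were HIST2H2BE, HIST2H2AC, HIST2H2BF and HIST1H2AG, of which 3 lie in the HIST2 cluster. At 2-fold, 2 histone genes were called lower, HIST2H2AC and HIST2H2BF, and 0 higher, against 1.16% and 1.75% of all measured genes. The interval lay below 0 for 6 measured histone genes and above 0 for none. The share of all measured genes with an interval that leaves out 0 was not computed. Neither this count nor those for the related lists below is therefore read as a result. Their median log2 ratio was -0.27, against -0.005 over all measured genes, whose 5th to 95th percentiles ran from -0.54 to 0.63. That median depended on the genes kept: it was -0.04 over the 7 genes averaging 5 CPM or more, -0.15 without the genes that overlap another gene and -0.15 on FPKM with a pseudocount of 1. Since the filter uses the mean of both libraries, a gene near 1 CPM can pass through 1 library alone. Of the genes called, HIST2H2AC and HIST2H2BF did so, at 0.909 and 0.826 CPM in the PGC-1α library. At a mean of at least 5 CPM, 7 histone genes were left and 1 of them, HIST2H2BE, was called lower, against 2.41% lower and 3.44% higher of 11094 genes.

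Linker histone H1, which binds DNA between nucleosomes, was level in sum within counting error. HIST1H1C, at chr6:26055787-26056428, had 466 control and 419 PGC-1α counts, or 17.1 and 17.3 CPM. Its log2 ratio was 0.02 (interval -0.18 to 0.21), so the libraries were level within that interval. Under the filter, HIST1H1E had 7 and 17 counts, with an interval above 0, and HIST1H1D had 8 and 4. The 6 H1 genes together had 482 and 443 counts, a log2 ratio of 0.05 (interval -0.14 to 0.24).

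H2A, which pairs with H2B on the outer faces of the nucleosome, was the core histone with the lowest ratio. The 17 H2A genes had 837 control and 595 PGC-1α counts, a log2 ratio of -0.32 (interval -0.47 to -0.17). HIST1H2AC, at chr6:26124145-26139116, held most of these, with 464 and 302 counts, or 17.0 and 12.5 CPM. It was lower in the PGC-1α library, with a log2 ratio of -0.45 (interval -0.66 to -0.24), but short of 1.5-fold. HIST1H2AG, at chr6:27133042-27135291, had 57 and 29 counts, or 2.09 and 1.198 CPM, a log2 ratio of -0.79 (interval -1.50 to -0.13). HIST2H2AC, at chr1:149886975-149887364, had 54 and 22 counts, or 1.98 and 0.909 CPM, a log2 ratio of -1.10 (interval -1.91 to -0.38). Both were called lower. HIST3H2A, at chr1:228456979-228457873, was not lower, with 212 and 205 counts, or 7.77 and 8.47 CPM, and its log2 ratio of 0.12 had an interval of -0.16 to 0.41. Under the filter, HIST1H2AI had 20 counts in each library and HIST1H2AL had 9 and 1.

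The summed ratio of H2B genes was lower in HIST2 than in HIST1, but single H2B genes outside HIST2 were low too. The 18 H2B genes had 1869 control and 1500 PGC-1α counts, which is 47.1% of all histone counts in the control, and a log2 ratio of -0.15 (interval -0.24 to -0.05). HIST1H2BK, at chr6:27146418-27146798, was the histone gene with the most counts, 819 and 780, or 30.03 and 32.23 CPM. Its log2 ratio was 0.10 (interval -0.04 to 0.24), with the libraries level within that interval. Of its 100-base stretches 28.4% also occur in H2BFS or CU639417.1, so some of its reads may belong to these. HIST1H2BD had 401 and 295 counts, or 14.7 and 12.2 CPM, and was lower by less than 1.5-fold, at -0.27 (interval -0.49 to -0.05). HIST1H2BJ with 99 and 91 counts, HIST1H2BC with 67 and 61 and HIST1H2BN with 27 and 27 had log2 ratios of 0.05, 0.04 and 0.17, all with intervals that span 0.

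Both H2B genes of the HIST2 cluster were called lower, against 3.92% of all measured genes. HIST2H2BF passed the filter only through the control, where it is high, so that count lends no support to a split by locus. HIST2H2BE, at chr1:149884459-149886652, had 315 control and 160 PGC-1α counts, or 11.6 and 6.61 CPM. The control library was 1.74-fold higher, a log2 ratio of -0.80 (interval -1.09 to -0.53), and this was the gene with the narrowest interval among those called. HIST2H2BF had 50 and 20 counts, or 1.83 and 0.826 CPM, a log2 ratio of -1.13 (interval -1.98 to -0.38). The row of HIST2H2BF overlaps FCGR1A and AC243772.2, which had 2 and 2 and 4 and 2 counts. Under the filter, HIST3H2BB had 29 and 17 counts, HIST1H2BE 23 and 17, HIST1H2BO 7 and 12, HIST1H2BL 10 and 6, and HIST1H2BF 15 and 3. In this order their log2 ratios were -0.58, -0.25, 0.91, -0.52 and -1.97. The interval left out 0 for HIST1H2BF alone (-4.58 to -0.33).

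H3 and H4, which form the inner tetramer of the nucleosome, gave intervals that span 0. The 16 H3 genes had 230 and 183 counts, a log2 ratio of -0.16 (interval -0.45 to 0.13). HIST1H3E had 87 control and 58 PGC-1α counts, at -0.41 (interval -0.92 to 0.08). HIST1H3B had 41 and 24, at -0.59 (interval -1.39 to 0.16), just past 1.5-fold but with an interval that spans 0. HIST1H3H had 49 and 47, at 0.11. None of these 3 was called. Under the filter, HIST2H3D had 17 and 15 counts, HIST1H3G 3 and 10, HIST1H3D 7 and 6, HIST1H3C 8 and 5, and HIST1H3J 7 and 5.

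The 15 H4 genes had 551 control and 448 PGC-1α counts, a log2 ratio of -0.13 (interval -0.31 to 0.06). HIST1H4I had 263 and 227 counts, or 9.64 and 9.38 CPM, and was level at -0.04 (interval -0.30 to 0.22). HIST1H4H with 105 and 107 counts stood at 0.20, HIST4H4 on chromosome 12 with 83 and 61 at -0.27, and HIST1H4E with 32 and 22 at -0.36, and all 3 intervals span 0. Under the filter, HIST1H4C had 10 and 11 counts. Of the 15 H4 genes 14 are annotated to encode the same protein, so these ratios are those of separate genes for 1 product. The 16 H3 genes encode 5 proteins, the 17 H2A genes 11 and the 18 H2B genes 14. The 5 H2A genes that encode the protein of HIST1H2AG had 86 and 50 counts together, at -0.60 (interval -1.14 to -0.09).

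**Figure D2:**
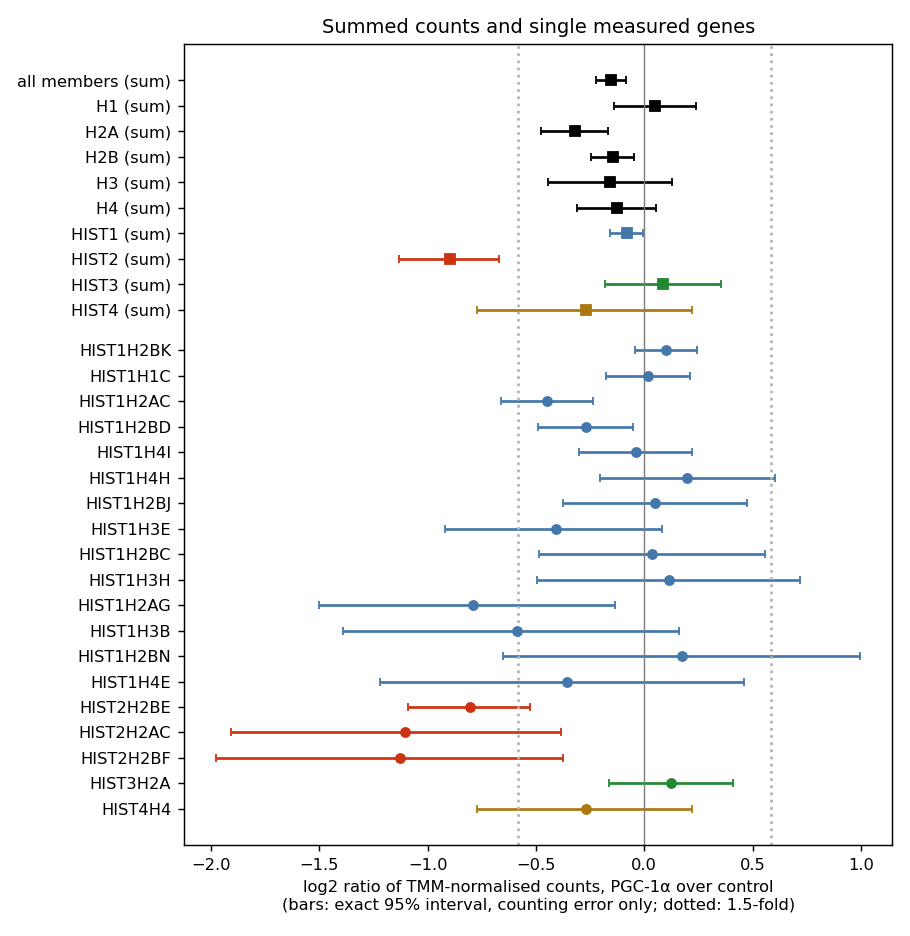
Log2 ratio of PGC-1α over control for summed counts (squares) by histone type and by cluster, and for each measured gene (circles) in the colour of its cluster, with exact 95% intervals of counting error and dotted lines at 1.5-fold. The HIST2 sum lies at -0.90 and its 3 genes between -1.13 and -0.80, while the HIST1 and HIST3 sums lie at -0.08 and 0.09.

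Sorted by locus rather than by protein, the genes of the HIST2 cluster on chromosome 1 had a lower ratio in sum than those of the other clusters. The 12 HIST2 genes had 485 control and 231 PGC-1α counts, a log2 ratio of -0.90 (interval -1.13 to -0.67). The 56 HIST1 genes on chromosome 6 had 3160 and 2650 counts, at -0.08 (interval -0.16 to -0.007). The 3 HIST3 genes had 241 and 227, at 0.09 (interval -0.18 to 0.35), and the HIST4 gene HIST4H4 was at -0.27 (interval -0.77 to 0.22). The share of histone counts from HIST2 genes was 12.2% (control) and 7.29% (PGC-1α). Compared directly, as the log2 odds ratio of counts in the 2 libraries, HIST2 differed from HIST1 by -0.82 (interval -1.06 to -0.57), from HIST3 by -0.98 (interval -1.34 to -0.63) and from the single HIST4 gene by -0.63 (interval -1.17 to -0.07). These compare the libraries at hand, not the conditions. In HIST1, 1 of 14 measured genes was called lower, with 7 of the 14 below and 7 above the control in CPM. In HIST2, all 3 measured genes were called lower, against 3.92% of all measured genes, but 2 of the 3 passed the filter only through the control, where they are high, so this count lends the sum no support.

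The HIST2 difference did not rest on a single gene. Without HIST2H2BE the 11 other genes had 170 and 71 counts, at -1.08 (interval -1.51 to -0.68), and without HIST2H4A and HIST2H4B the ratio was -0.81 (interval -1.05 to -0.57). Of the 10 HIST2 genes above 0, 9 had fewer CPM in the PGC-1α library, although most of these had few counts. HIST2H3D among them was level, at 0.623 and 0.620 CPM. HIST2H4A, HIST2H4B, HIST2H2AA3 and HIST2H3C are copies whose reads cannot be placed, and HIST2H3D shares 51.3% of its 100-base stretches. The 9 are therefore not separate cases. HIST2H2AB had 2 and 0 counts and HIST2H3C 1 and 0. Over all measured genes, which is a set with a higher filter, 7219 of 14154 had a log2 ratio below 0. The 9 of 10 thus have no like share beside them and lend the sum no support. Among H2B genes alone, the 2 of HIST2 had 365 and 180 counts and the 15 of HIST1 had 1475 and 1303, at -0.85 and -0.007. Their direct difference was -0.84 (interval -1.13 to -0.56). Among H2A genes, HIST1 was lower too, with 564 and 360 counts for 12 genes at -0.47 (interval -0.67 to -0.28). The difference between HIST2 and HIST1 H2A was -0.38 (interval -1.09 to 0.31), which spans 0.

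The chromosome 1 locus holds copies too alike for short reads to place. HIST2H4A and HIST2H4B share 94.9% and 97.1% of their 100-base stretches with other genes, and together they had 41 control and 6 PGC-1α counts, at -2.50 (interval -4.13 to -1.36). HIST2H4A alone had 35 and 4, under the filter. HIST2H3A, HIST2H3C and HIST2H3D had 18 and 15 together, at -0.08 (interval -1.18 to 0.98). HIST2H2AA3 and HIST2H2AA4 had 5 and 8 together. HIST2H2AC shares 17.2% of its stretches with that pair, and the 3 genes together had 59 and 30 counts, at -0.79 (interval -1.49 to -0.15). HIST2H2BF shares 17.6% of its stretches and HIST2H2BE 2.63%. On chromosome 6, HIST1H4J had 10 and 0 counts and its near copy HIST1H4K had 4 and 10, which sum to 14 and 10, so neither is read alone.

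Other genes around the HIST2 locus did not share its ratio. Within 300 kb of its members, a distance chosen after the values were seen, 10 other genes were measured, with a median log2 ratio of 0.02 and a range of -0.60 to 0.48. The 7 protein-coding ones lay between -0.25 (PLEKHO1) and 0.18 (MTMR11). SF3B4, a splicing factor gene, had 3163 and 2865 counts, at 0.03, and BOLA1 had 467 and 423, at 0.03. The row called lower was AC239868.2, with 324 and 190 counts at -0.60. The HIST2 pseudogene HIST2H2BC had 29 and 24 counts, at -0.10. At the HIST3 locus the 7 measured neighbours had a median of 0.03.

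**Figure D3:**
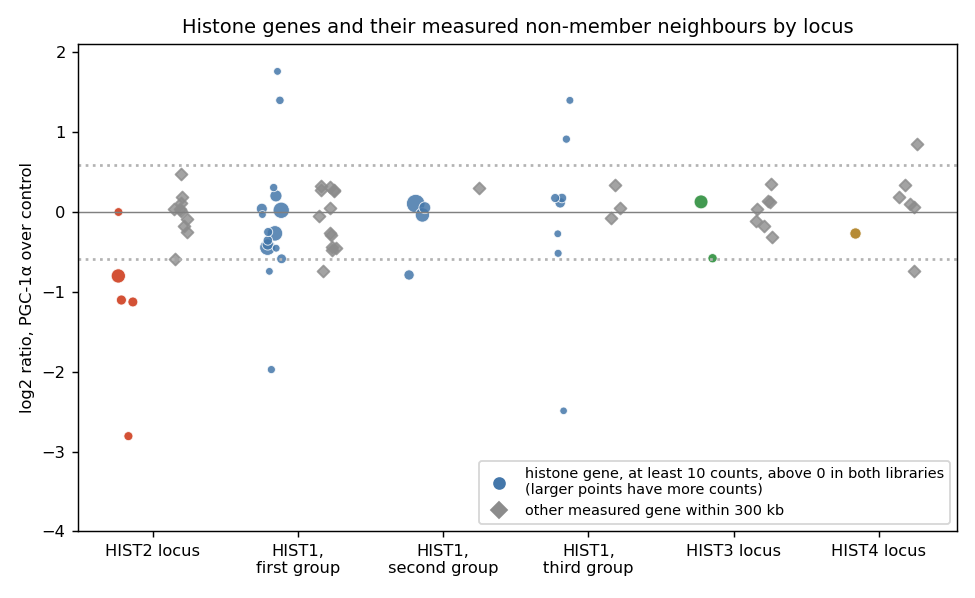
Log2 ratio of PGC-1α over control for histone genes with at least 10 counts (circles, coloured by cluster, larger with more counts) and for other measured genes within 300 kb (grey diamonds), by locus; HIST1 is shown in its 3 groups of genes along chromosome 6. HIST2 genes reach from about 0 to -2.81 with the 3 measured genes at -0.80 to -1.13, and their neighbours range from -0.60 to 0.48.

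Within HIST1, the first group of 35 genes had 1763 and 1383 counts, at -0.18 (interval -0.28 to -0.08). The second group of 5 genes had 1245 and 1129, at 0.03 (interval -0.09 to 0.15), and the third group of 16 had 152 and 138, at 0.03 (interval -0.31 to 0.37). The called gene HIST1H2AG lies in the second group, next to HIST1H2BJ and HIST1H4I, which were level.

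Head-to-head genes were compared pair by pair. Of 13 pairs with starts under 1000 bases apart, 11 joined an H2A to an H2B gene and 3 had both genes measured. HIST2H2AC and HIST2H2BE, 323 bases apart, had log2 ratios of -1.10 and -0.80, and both were called lower. HIST1H2AG and HIST1H2BJ, 292 bases apart, had -0.79 and 0.05. HIST1H2AC and HIST1H2BC, 219 bases apart, had -0.45 and 0.04. In all 3 pairs the H2A gene had the lower ratio, but the intervals of the partners overlap. HIST2H2AC passed the filter only through the control, where it is high, so this count lends no support to a difference between H2A and H2B. In the pair HIST3H2A and HIST3H2BB, whose H2B gene lay under the filter with 29 and 17 counts, the ratios were 0.12 and -0.58. HIST1H2AI and HIST1H2BL, both under the filter, had 0.17 and -0.52. HIST1H2AH, with 7 and 2 counts, and HIST1H2BK had -1.41 and 0.10. HIST1H2AJ, with 4 and 2 counts, and HIST1H2BM had -0.68 and 0.17. In the remaining H2A and H2B pairs the H2A gene stood at 0 in both libraries. Summed over all genes, H2A minus H2B was -0.17 (interval -0.36 to 0.008), which spans 0.

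The octamer stood in the windows of 8 of the 11 measured H2A and H2B genes, among them all 4 called lower. Of these 4, HIST2H2AC and HIST2H2BF passed the filter only through the control, where they are high. Neither this count nor the medians below therefore lend support to a link with the octamer. The 4 uncalled genes that hold the octamer are HIST1H2AC at -0.45, HIST1H2BK at 0.10, HIST1H2BJ at 0.05 and HIST1H2BC at 0.04. HIST2H2AC and HIST2H2BE share a single stretch between their starts, so they are not separate cases. The same holds for HIST1H2AG with HIST1H2BJ and for HIST1H2AC with HIST1H2BC. Around their shared octamers these partners had -0.79 and 0.05, and -0.45 and 0.04. The 3 measured genes without the octamer, HIST1H2BD, HIST3H2A and HIST1H2BN, lay between -0.27 and 0.17. The HIST1H2BN window belongs to a start 809 bases from the listed start of the gene. The median log2 ratio was -0.62 over the 8 genes with the octamer and 0.12 over the 3 without it, a description of few genes with no test.

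Annotated 3′ ends differ between the genes as well. The 23 genes annotated with over 100 bases past the stem-loop, which include HIST2H2BE, HIST2H2BF and HIST1H2AG, had 1927 control and 1386 PGC-1α counts, at -0.30 (interval -0.40 to -0.20). The 35 genes annotated with under 30 bases after the stop include the other gene called lower, HIST2H2AC, at -1.10. Together these 35 genes had 1471 and 1324 counts, at 0.02 (interval -0.09 to 0.13). Both values rested on a few genes. Without HIST2 genes the first was -0.17, and without HIST1H2AC as well it was -0.06. Without HIST1H2BK and HIST1H1C the second was -0.40. The tables give counts per gene, so they do not show which transcripts ended at the stem-loop and which ran past it, and the part that this plays in the ratios was not tested.

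Compared per length, HIST1H2BK had the highest level by the authors' FPKM, 79.4 for the control and 84.0 for PGC-1α, followed by HIST1H1C at 26.8 and 26.8. HIST1H2BD was at 17.0 and 13.9 FPKM, HIST1H2AC at 10.3 and 7.43 and HIST3H2A at 8.74 and 9.40. HIST2H2BE was at 5.30 and 2.99 FPKM and HIST2H2AC at 5.11 and 2.32. The lengths include annotated sequence past the stem-loop, from 381 bases for HIST1H2BK to 5477 for HIST1H2BN, so the order of levels depends on that annotation.

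With no filter on level, 58 histone genes had at least 1 count, and 8 were called lower and 2 higher, against 3.09% lower and 4.54% higher of all 28660 such genes. The 4 added on the low side were HIST2H4A, HIST1H2BF, HIST1H2AL and HIST1H4J, of which HIST2H4A and HIST1H4J belong to the copies above. The 2 on the high side were HIST1H1E, at 1.39 (interval 0.11 to 2.96), and HIST3H3, which had 0 and 5 counts and an interval that starts at 0.05. HIST3H3 was named after its values were seen.

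Other gene lists around histone supply were read beside these values. Genes listed as replication-independent histone variants, most of which are made through the whole cycle from polyadenylated RNA, were far more abundant in counts. Their summed levels were 1966 CPM (control) and 1840 CPM (PGC-1α). Of 12 listed, 11 were measured, 1 was called higher and 0 lower, with a median log2 ratio of -0.12. H3F3B, H2AFZ and H2AFY were at -0.19, -0.14 and 0.05. The gene called higher was H2AFY2, which encodes a macroH2A, with 1062 and 1608 counts, at 0.77 (interval 0.66 to 0.88). H3F3C stood at 0 in both libraries.

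None of the factors that make and process histone mRNA passed the call. Of 19 such genes found, 19 were measured and 0 were called in either direction, with a median of 0.02 and a range of -0.23 (CPSF3) to 0.29 (LSM11). Differences under 1.5-fold had intervals below 0 for 4 of them and above 0 for 3. SLBP had 1701 control and 1380 PGC-1α counts, at -0.13 (interval -0.23 to -0.03). NPAT had 394 and 377, at 0.11, and POU2F1 had 960 and 882, at 0.05. The 3 with the highest levels, SYMPK, SRRT and UPF1, lay between -0.002 and 0.11. Of 16 chaperones and assembly factors, 0 were called, with a median of -0.07. Of the 16, 15 lay below 0, against 7219 of all 14154 measured genes. Their intervals lay below 0 for 8, a count with no like share over all genes. NAP1L1, SSRP1 and SUPT16H were at -0.07, -0.19 and -0.05.

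Of 40 DNA replication and S-phase genes listed, 40 were measured, 1 was called higher and 0 lower. Their median was 0.005 and 38 lay within 0.5 of 0, with intervals below 0 for 8 and above 0 for 9. E2F2, which encodes an activating E2F factor, had 453 and 572 counts, at 0.51 (interval 0.33 to 0.69), short of 1.5-fold, and E2F7 had 546 and 667, at 0.46 (interval 0.30 to 0.63). MCM7, MCM4 and PCNA were at -0.07, 0.25 and 0.004. The gene called higher was CCNE1, which encodes cyclin E1, with 784 and 1261 counts, at 0.86 (interval 0.73 to 0.99). In RNA from a whole culture, fewer cells in S phase and less histone RNA per cell cannot be told apart.

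**Figure D4:**
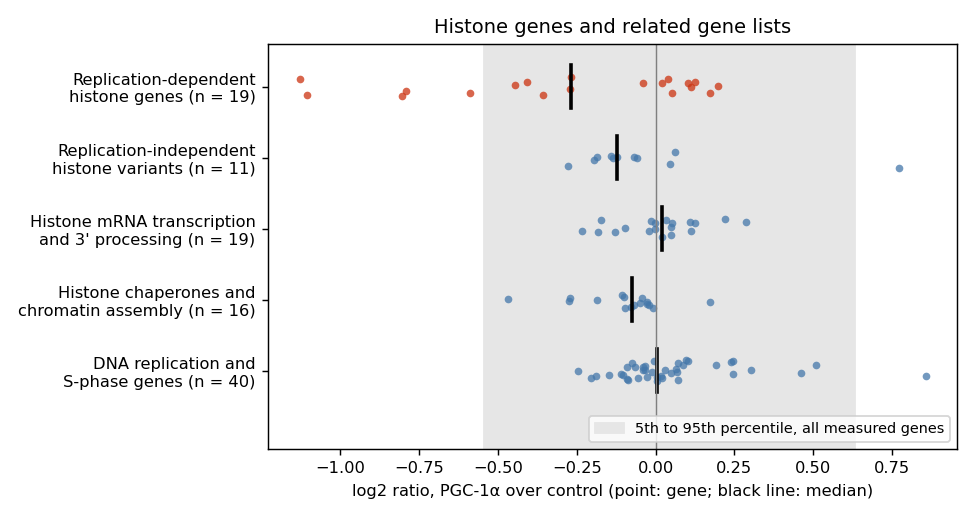
Log2 ratio of PGC-1α over control for each measured gene (points) of the replication-dependent histone genes and of 4 related lists, with the median as a black line and the 5th to 95th percentiles of all measured genes in grey. The histone genes have a median of -0.27 with 4 points left of -0.75, and the other lists have medians from -0.12 to 0.02.

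RNAs other than histone mRNAs that lack a poly(A) tail were looked up in the same counts. The counting program is not known here, so a row at 0 need not mean that the RNA was absent. Of 9 rows, 8 were listed at 0 in both libraries, among them RN7SK, RN7SL1, RMRP, RPPH1, SCARNA2, TERC and RNU7-1. RN7SL2, the RNA of the signal recognition particle, had 29541 and 40742 counts, at 0.64 (interval 0.61 to 0.66), and was called higher. Its part in the histone ratios was not tested. Among the A549 and epithelial markers 3 of 8 were called lower, AKR1C1 at -0.72, KRT19 at -1.13 and CDH1 at -0.95, and the summed levels of the list were 12966 and 11895 CPM.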

How the data were processed

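RNA-seq of 1 control and 1 PGC-1α library of A549 cells was analysed from the authors' deposited gene tables, which hold, per the file headers, raw counts and FPKM for each gene. The FPKM were the same counts rescaled, to a relative tolerance of 1e-06. Per the submitters' processing notes, the tools were TopHat2 2.0.9 and Bowtie2 2.0.6, with Cuffdiff 2.1.1 and Cufflinks 2.1.1. For the counting program, build, annotation and strand setting, the answer is not given in the sources used here. All 72 histone genes had the start and end of GENCODE 29 on GRCh38, as did 97.6% of shared genes.

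Counts were scaled with TMM factors of edgeR 4.0.16 (1.01 and 0.995). Measured means a mean of at least 1 CPM. Log2 ratios used 0.5 added to each count, with exact 95% Clopper-Pearson intervals of the count split, and calls needed 1.5-fold and an interval without 1. With 1 library per group edgeR's quasi-likelihood model could not be fitted. The calculation was tested on simulated data drawn with counting error alone, as the intervals assume. That test cannot speak to the spread between cultures or to duplicate reads. Copies were found as 100-base stretches shared between GENCODE 29 transcripts. A total of 17 histone genes, 3 of them measured, overlap another gene, and without a strand setting their reads cannot be told apart.

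Named genes were all measured histone genes, those under the filter with at least 10 counts, and, in each other list, called genes up to 6 and the 3 of highest CPM; a few more are named for their role. Members and lists were chosen with earlier results of these data known. Alternatives were DESeq2 1.42.0 size factors, library totals, FPKM with pseudocounts of 0.1 and 1, other filters, a 2-fold threshold, summed copies and leaving out genes. The scripts ran under R 4.3.3 and Python 3.11.15, with pandas 2.3.3, scipy 1.17.1, matplotlib 3.10.9 and numpy 2.4.6.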

Additional observations from a re-analysis of the deposited data

How the results depend on the processing

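No paired analysis was possible because each condition had 1 library, and for the same reason no library could be left out. A ratio was read as the same where it stayed within the main counting interval. A count of calls had to stay within 1.5-fold of the main count. The median had to stay within 1 standard deviation of the log2 ratios of the measured histone genes, which is a wide range. Of 161 alternatives 148 were the same by these rules, and 4 had another sign. These were HIST1H1C, at 0.02, in 3 settings (lowest -0.00059), and the genes annotated with under 30 bases after the stop, at -0.40 without HIST1H2BK and HIST1H1C. DESeq2 size factors and library totals moved the median of all measured genes from -0.005 to -0.025 and -0.021 and no call. On FPKM with pseudocounts of 0.1 and 1 the sum of all histone genes was -0.0691 and -0.0688 and the H2B sum -0.0120 and -0.0119, where HIST1H2BK alone holds 79.4 of 194 FPKM in the control. The count of histone genes called lower, 4, was 2 on FPKM with a pseudocount of 1, 8 with no filter, 1 at a mean of at least 5 CPM and 2 at 2-fold. The count called higher, 0, was 2 with no filter. The fewer or added genes follow from the filter or, at 2-fold, from the threshold. On FPKM with a pseudocount of 1, HIST2H2BF stood at -0.33 and HIST1H2AG at -0.34, short of 1.5-fold. That pseudocount is larger than the FPKM of these genes in either library, 0.578 and 0.257 for HIST2H2BF and 0.935 and 0.529 for HIST1H2AG. Alternatives for clusters, copies and annotated 3′ ends were chosen after seeing the data. Depth limits the 39 genes above 0 under the filter, whose intervals are wide, and no value here carries the spread between cultures.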

Other observations

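The gene table also lists 15 rows with a HIST symbol and a pseudogene biotype, which are outside the protein-coding set. They had 38 control and 37 PGC-1α counts, and 5 of them were above 0. HIST2H2BC had 29 and 24 counts, at a log2 ratio of -0.10 (interval -0.94 to 0.73). HIST1H1PS1 had 1 and 6, and HIST2H2BA had 3 in each library.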
